A study of Homo sapiens with 2 samples.

Results

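The 9 genes described here encode the kinase complexes that drive RNA polymerase II through elongation and the proteins that hold one of them in reserve. They are CDK9 with its cyclins CCNT1 and CCNT2, the inhibitors HEXIM1 and HEXIM2, the 7SK methylphosphate capping enzyme MEPCE, and CDK12 and CDK13 with their cyclin CCNK. They were chosen by gene symbol and are 9 of the 57894 genes of the tables, with 59 of the 198002 transcripts. All 9 passed the filter on low counts. Total RNA was sequenced from HEK293 cells, a line of human embryonic kidney origin, in 2 libraries of LARP7 knockout clone 1-11 and 2 libraries of the parental cells. One label field of the knockout sample reads wildtype, whereas its title and genotype field read knockout, and these were followed. With 1 knockout clone, the loss of LARP7 cannot be told apart from whatever else sets this clone off from its parental line. Since separate cultures are not stated for replicate libraries, the tests weigh differences against a spread between libraries that may be purely technical. The labels do not say how LARP7 was inactivated.

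P-TEFb, the dimer of CDK9 and cyclin T1 or T2, phosphorylates the polymerase and its pausing factors and so releases paused polymerase into elongation. A large pool of P-TEFb is held inactive on the 7SK RNA, where HEXIM1 or HEXIM2 blocks the kinase. MEPCE caps the 5′ end of 7SK and LARP7 binds its 3′ end, and both protect the RNA from decay. CDK12 and CDK13 are related kinases that share cyclin K and act on the elongating polymerase further along the gene. HEXIM1 is known as a gene whose transcription responds to released P-TEFb.

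A pair of promoters is shown because HEXIM1 and CDK9 were the members with the largest differences, in opposite directions. They are the plus-strand RefSeq windows of 250 bases before and 50 bases after the annotated start in GRCh38.p14, at chr17:45148225-45148524 for HEXIM1 and chr9:127785784-127786083 for CDK9. Capitals mark, on either strand, the TATA box (searched as TATAAA), the CCAAT box (by that name) and the GC box (searched as GGGCGG).
HEXIM1 promoter: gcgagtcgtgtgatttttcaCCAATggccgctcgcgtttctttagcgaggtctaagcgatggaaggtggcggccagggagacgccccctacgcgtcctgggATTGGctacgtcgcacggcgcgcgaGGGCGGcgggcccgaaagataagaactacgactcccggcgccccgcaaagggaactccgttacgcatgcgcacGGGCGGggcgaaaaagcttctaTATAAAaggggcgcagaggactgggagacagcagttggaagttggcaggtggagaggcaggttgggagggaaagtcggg
CDK9 promoter: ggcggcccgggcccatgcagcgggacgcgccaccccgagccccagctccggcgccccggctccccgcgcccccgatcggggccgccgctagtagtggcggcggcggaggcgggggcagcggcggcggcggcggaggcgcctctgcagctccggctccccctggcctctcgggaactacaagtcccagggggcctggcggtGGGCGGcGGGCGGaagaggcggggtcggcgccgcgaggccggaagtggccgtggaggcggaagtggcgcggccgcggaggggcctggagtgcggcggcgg
The HEXIM1 window held TATAAA from 29 to 24 bases before the start, 2 matches to CCAAT and 2 to GGGCGG. The CDK9 window held 2 matches to GGGCGG and neither of the other motifs, and 82% of its bases were G or C, against 62% in the HEXIM1 window. No motif overlapped another in either window. Of 35116 RefSeq promoter windows of this length, 11.5% held TATAAA, 34.6% CCAAT and 45% GGGCGG. All 9 members matched the RefSeq table, with 14 windows, and only that of HEXIM1 held TATAAA.

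The knockout libraries held 16838501 and 16218587 estimated reads and the parental libraries 18483220 and 12851942. The members took 12683 and 11346 of them in the knockout and 13031 and 7807 in the parental cells. Parental replicate 2 stood apart in TPM (abundance per transcript length, scaled to a fixed total). Small RNA genes made up 53.4% of its TPM, against 32.0 to 37.2% in the other 3 libraries. Fragment length, taken from effective length, was 232.9 and 225.8 bases in the knockout and 217.0 and 206.7 bases in the parental cells. Small RNA genes held 1.11 and 1.31% of the reads in the knockout and 1.81 and 3.2% in the parental cells. Neither measure overlapped between the groups. The small RNA genes counted include 7SK, which held 2904 and 3457 reads in the knockout and 98057 and 69038 in the parental cells. The small RNA share without 7SK was not computed, so only fragment length is said to go along with genotype. Levels of a gene are therefore compared between libraries as CPM, estimated reads scaled to a common library size with TMM factors, and TPM serves only within a library. LARP7 had 36.1 and 31.9 CPM in the knockout against 59.8 and 46.5 CPM in the parental cells, lower in both knockout libraries (log2 difference −0.65) but not past the threshold (edgeR adjusted p = 0.135). Over 13 alternatives LARP7 stayed lower in the knockout, by −0.82 to −0.46 on the log2 scale. With all 4 libraries kept, it passed the threshold with DESeq2 (adjusted p = 0.045). It also passed with no filter on low counts (edgeR adjusted p = 0.0119) and a replicate block (edgeR adjusted p = 0.000525). In the others with all libraries it did not, with an adjusted p up to 0.348 (edgeR, length offset). 7SK RNA had 169 and 205 CPM in the knockout against 5572 and 5481 CPM in the parental cells, a 29.6-fold lower level (edgeR adjusted p = 1.13e-06). Of 6 kidney lineage markers 5 had enough reads to test, and none of 7 markers of blood, liver, endothelium, fibroblasts, epidermis and muscle did, each with 0 to 8 reads per library. Of 3 filament genes known from this line, NEFL and VIM did not pass the test, with 82.7 and 92 CPM in the knockout and 87 and 97.5 CPM in the parental cells for NEFL and 521 and 508 CPM in the knockout and 447 and 396 CPM in the parental cells for VIM. The third, NEFM, was lower, with 7.76 and 8.58 CPM in the knockout and 49.4 and 73.6 CPM in the parental cells (edgeR adjusted p = 0.00164).

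None of the 9 members passed the test in either direction (edgeR quasi-likelihood F test, Benjamini-Hochberg adjusted p under 0.05 over 18484 genes). Over all genes tested, 61 were higher in the knockout (0.33%) and 93 lower (0.503%). At an unadjusted p under 0.05 stood 2 members, HEXIM1 with the higher and CDK9 with the lower level in the knockout, against 14.3% of all genes. Both knockout libraries lay above both parental libraries for 1 member, HEXIM1, against 23.5% of all genes, and below both for 2 members, CDK9 and CCNK, against 22.7%. The median log2 difference, knockout minus parental, was 0.052 over the members and 0.0024 over all genes tested. Read against these shares, the counts are no result about the members. In RNA from whole cultures, fewer cells with a transcript and less of it per cell cannot be told apart.

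**Figure D1:**
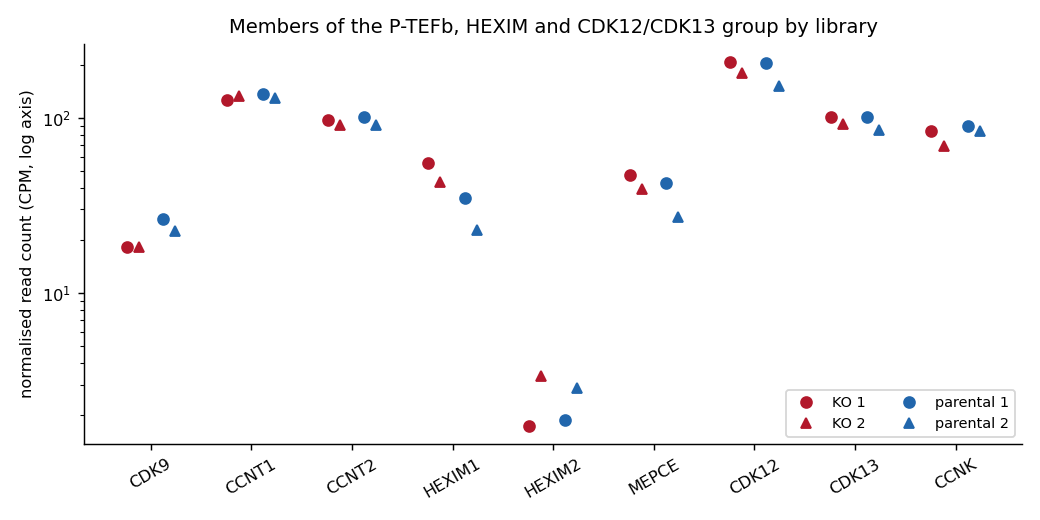
Normalised read count (CPM, log axis) of the 9 members, with 1 point per library, knockout in red to the left of parental in blue, circles for replicate 1 and triangles for replicate 2. HEXIM1 at 54.9 and 42.9 CPM in the knockout lies above both parental libraries at 34.8 and 22.9 CPM, and CDK9 at 18.4 CPM in both knockout libraries lies below both parental libraries at 26.6 and 22.5 CPM.

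Gene positions are those of GENCODE v29 on GRCh38. CDK9 (chr9:127785679-127790787, plus strand), the kinase of P-TEFb, had 18.4 CPM in each knockout library, against 26.6 and 22.5 CPM in the parental libraries. The knockout libraries coincided and lay below both parental ones. The log2 difference was −0.42 (SE 0.17, 95% interval −0.82 to −0.024), a 1.34-fold lower level, with an edgeR adjusted p of 0.324. Without parental replicate 2 the log2 difference was −0.54, and without parental replicate 1 it was −0.3. Over 13 alternatives it lay between −0.54 and −0.3. With all 4 libraries kept, the adjusted p lay between 0.135 (edgeR, replicate block) and 0.461 (DESeq2). CDK9 rested on 284 to 469 reads per library, the lowest number in every library after HEXIM2.

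CCNT1 (chr12:48688458-48716998, minus strand), the cyclin T1 subunit through which HIV Tat also recruits P-TEFb, had 127 and 134 CPM in the knockout and 136 and 130 CPM in the parental cells. The groups overlapped, and the log2 difference of −0.024 had a 95% interval of −0.29 to 0.24 (edgeR adjusted p = 0.953). CCNT2 (chr2:134918235-134959342, plus strand), the alternative cyclin T2, had 97.5 and 90.9 CPM in the knockout and 101 and 91.6 CPM in the parental cells. Its groups overlapped too, with a log2 difference of −0.031 and a 95% interval of −0.32 to 0.25 (edgeR adjusted p = 0.943). The sign of both differences turned with the scaling: with library size alone, which raised the median of all genes to 0.095, they were 0.069 and 0.061.

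HEXIM1, the main inhibitor of P-TEFb, had 54.9 and 42.9 CPM in the knockout against 34.8 and 22.9 CPM in the parental cells. Both knockout libraries were above both parental libraries, while within each group replicate 1 was the higher. Fragment length had the same order of libraries, with 232.9 and 225.8 bases in the knockout and 217.0 and 206.7 in the parental cells. Whether it bears on the HEXIM1 values was not tested. The HEXIM1 means were 48.9 ± 8.5 CPM in the knockout and 28.9 ± 8.36 CPM in the parental cells (SD, n = 2 libraries each). The log2 difference was 0.75 (SE 0.22, 95% interval 0.26 to 1.25), a 1.69-fold higher level, with an edgeR adjusted p of 0.173. The call depended on the tool and the filter, among other settings. DESeq2 put HEXIM1 just past the threshold (adjusted p = 0.0496), and so did edgeR when genes with few reads were kept (edgeR adjusted p = 0.00128). Without parental replicate 1 the log2 difference was 1.09, and without parental replicate 2 it was 0.49. Without knockout replicate 1 it was 0.57, and without knockout replicate 2 it was 0.93. These fits take the spread of a group with 1 library from the other group, and are read for effect size only. Over 14 alternatives the log2 difference stayed positive, between 0.49 and 1.09. With all 4 libraries kept, the edgeR adjusted p lay between 4.15e-05 (replicate block) and 0.27 (length offset).

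HEXIM1 has a single exon, at chr17:45148502-45152101 on the plus strand in GENCODE v29, and a single transcript of 3600 bases, HEXIM1-201. An antisense gene, AC138150.1, overlaps 520 of these bases (14.4%), and whether reads were assigned by strand is not given in the sources used here. AC138150.1 held 0 reads in both knockout libraries and 0 and 31 reads in parental replicates 1 and 2. With its reads added, HEXIM1 had 54.9 and 42.9 CPM in the knockout and 34.8 and 25.4 CPM in the parental cells, and the log2 difference was 0.7.

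HEXIM2 (chr17:45160700-45170040, plus strand), the paralog that can replace HEXIM1 on 7SK, lies close to it and was the least abundant member per length in all 4 libraries. It had 1.75 and 3.37 CPM in the knockout and 1.88 and 2.86 CPM in the parental cells. The groups overlapped, and with 30 to 57 reads per library the 95% interval of the log2 difference ran from −0.97 to 1.22 (edgeR adjusted p = 0.941). The interval thus allows a knockout level between 0.511 and 2.33 times that of the parental cells, and a smaller difference was not detectable at this depth. HEXIM2 also has an antisense neighbour: AC138150.2 covers 50.3% of the HEXIM2 exon bases and held 1 to 7 reads per library.

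MEPCE (chr7:100428790-100434126, plus strand), which caps 7SK and stays bound to it, had 47.4 and 39.1 CPM in the knockout and 42.6 and 27.1 CPM in the parental cells. Parental replicate 2 was the low library, and the groups overlapped. The log2 difference was 0.31 (95% interval −0.19 to 0.8, edgeR adjusted p = 0.573). One library decided this value: without parental replicate 1 it was 0.67 and without parental replicate 2 it was 0.021. With all 4 libraries kept, the adjusted p of MEPCE lay between 0.148 (edgeR, replicate block) and 0.705 (DESeq2).

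CDK12 (chr17:39461511-39564907, plus strand), the kinase on which the transcription of many long DNA repair genes depends, had 208 and 181 CPM in the knockout and 207 and 153 CPM in the parental cells. CDK13 (chr7:39949646-40099580, plus strand), its paralog, had 101 and 92.5 CPM in the knockout and 101 and 85.4 CPM in the parental cells. The groups overlapped for both kinases. The log2 differences were 0.11 for CDK12 (95% interval −0.26 to 0.48, edgeR adjusted p = 0.812) and 0.052 for CDK13 (95% interval −0.25 to 0.36, edgeR adjusted p = 0.906). Without parental replicate 2 they were −0.095 and −0.064.

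CCNK (chr14:99481169-99535044, plus strand), the cyclin that both kinases need, had 83.7 and 69.5 CPM in the knockout and 90.1 and 84.4 CPM in the parental cells. Knockout replicate 2 was the low library, and knockout replicate 1 lay only just below parental replicate 2. The log2 difference was −0.19 (95% interval −0.5 to 0.12, edgeR adjusted p = 0.587) and kept its sign under all 13 alternatives. CCDC85C, a gene on the opposite strand, shares 59.5% of the CCNK exon bases and held 811 and 772 reads in the knockout and 887 and 587 reads in the parental cells, so reads of the pair may be divided between them with error.

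**Figure D2:**
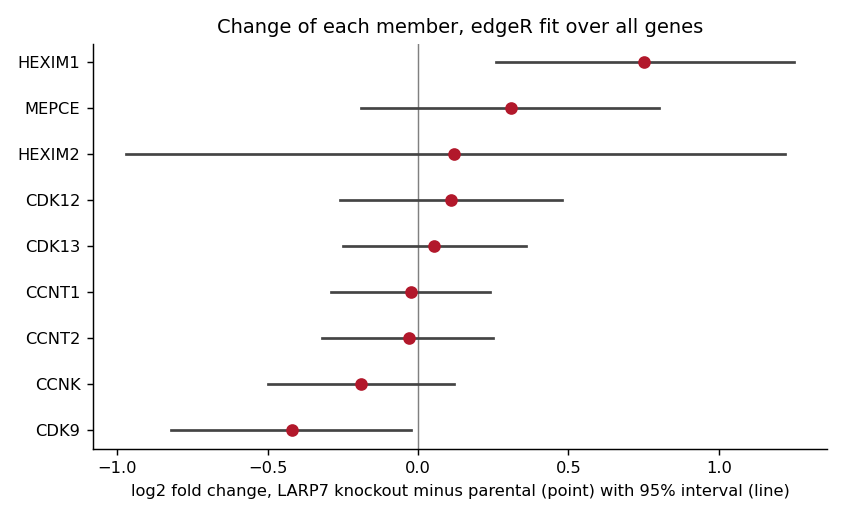
Log2 difference of each member, knockout minus parental, with its 95% interval from the edgeR fit over all genes. HEXIM1 at 0.75 and CDK9 at −0.42 have intervals that do not include 0 before adjustment, and HEXIM2 has the widest interval, −0.97 to 1.22.

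Per length and within a library, the order of the members was much the same in both groups. CCNK was the most abundant of the 9 in all 4 libraries, at 48.4 and 37 TPM in the knockout and 40.9 and 30.4 TPM in the parental cells. CDK12, CDK13, CCNT1 and CCNT2 followed in positions 2 to 5 in every library, in changing order, so that these neighbours were not separated by their spread. CDK9, HEXIM1 and MEPCE held positions 6 to 8. In this trio CDK9 was first in both parental libraries, whereas MEPCE was first in both knockout libraries. Over protein-coding transcripts alone, MEPCE was above CDK9 in all 4 libraries. CDK9 had 11.9 and 12.7 TPM in the knockout and 16.4 and 10.1 TPM in the parental cells, and HEXIM1 had 13.9 and 10.5 TPM in the knockout and 7.33 and 3.84 TPM in the parental cells. HEXIM2 came last in every library, at 2.16 and 3.9 TPM in the knockout and 1.61 and 1.89 TPM in the parental cells.

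Ratios of summed TPM within a library do not depend on the total to which TPM is scaled. HEXIM1 and HEXIM2 together had 1.35 and 1.14 times the TPM of CDK9 in the knockout, against 0.546 and 0.565 times in the parental cells. The knockout ratios lay above 1 and the parental ratios below it, but this position relative to 1 depended on the short processed transcripts of CDK9. Over protein-coding transcripts alone the ratio was 2.68 and 2.4 in the knockout and 1.23 and 1.25 in the parental cells, above 1 in all 4 libraries and still higher in both knockout libraries. The log2 difference of this ratio was 1.16, and it lay between 1.04 and 1.28 under the alternatives tried. MEPCE over CDK9 was 1.46 and 1.1 in the knockout and 0.804 and 0.652 in the parental cells, a log2 difference of 0.81. The cyclins CCNT1 and CCNT2 together over CDK9 were 4.54 and 3.72 in the knockout and 2.64 and 3.09 in the parental cells, a log2 difference of 0.52. These 3 ratios share CDK9 as their denominator and are not independent of each other. Both knockout libraries were higher in each of the 3, but how often ratios between other genes lie apart was not computed.

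The two-sided exact permutation test gave p = 0.33 for each of these 3 ratios, the smallest p that 2 against 2 libraries allow, so none of the 7 ratios compared could pass a threshold of 0.05. CCNK over the sum of CDK12 and CDK13 was 0.719 and 0.647 in the knockout and 0.771 and 0.908 in the parental cells, lower in both knockout libraries (log2 difference −0.29). CCNT1 over CCNT2 was 0.747 and 1.05 in the knockout and 1.32 and 1.13 in the parental cells (log2 difference −0.46), but this difference was 0.0061 in CPM and 0.028 over protein-coding transcripts alone. The difference was thus present in TPM over all transcripts and close to 0 in both of those settings. HEXIM1 over HEXIM2 was 6.45 and 2.71 in the knockout and 4.55 and 2.03 in the parental cells, and CDK12 over CDK13 was 1.16 and 1.21 in the knockout and 1.19 and 0.963 in the parental cells. In both of these pairs the groups overlapped.

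**Figure D3:**
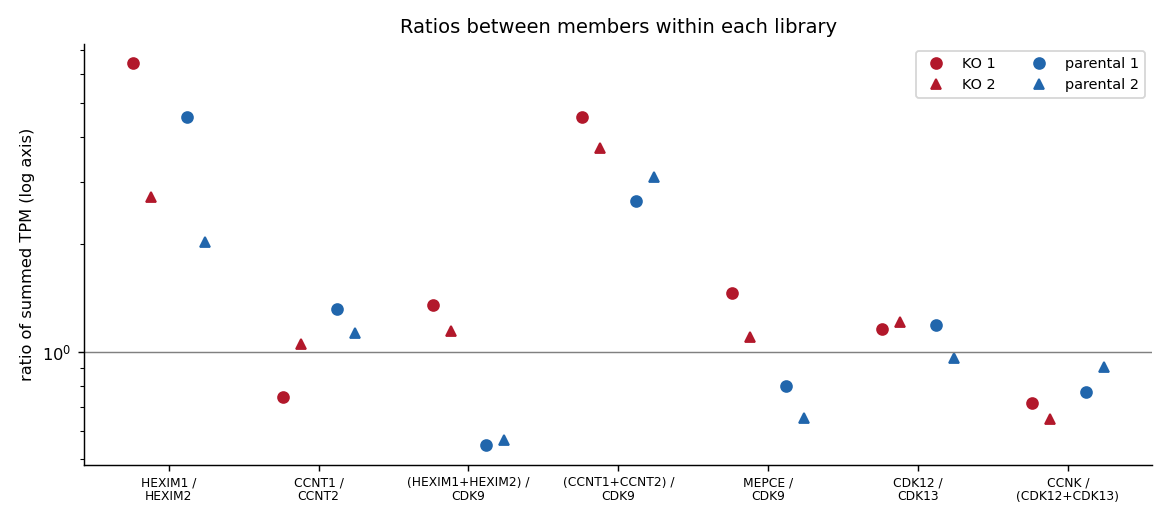
Ratio of summed TPM (log axis) for 7 pairs of members, with 1 point per library, knockout in red to the left of parental in blue, and a grey line at 1. The ratio of both HEXIM genes to CDK9 is 1.35 and 1.14 in the knockout and 0.546 and 0.565 in the parental cells; over protein-coding transcripts alone, not plotted, it is above 1 in all 4 libraries.

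The transcripts that carry each gene were examined next, since the study also asked about splicing. Of the 59 member transcripts 38 had enough reads to test, and none passed (edgeR adjusted p under 0.05), as was the case for all 54400 transcripts tested (0%). At an unadjusted edgeR p under 0.05 were 3420 transcripts. Limma voom called 2 transcripts and DESeq2 called 791, and no called transcript was from a member. Among the 38, both knockout libraries were above both parental ones for 9 transcripts, against 20% of all transcripts tested, and below both for 10, against 18.5%. The smallest edgeR adjusted p over all transcripts was 0.149. Transcript usage, the division of a gene's reads among its transcripts, changed in 84 of 10196 genes tested (0.824%, diffSpliceDGE with Simes adjusted p under 0.05). None of the 8 members with more than 1 transcript passed, and none had an unadjusted p under 0.05, against 547 genes in all.

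At an unadjusted edgeR p under 0.05 stood 3 of the 38 member transcripts, HEXIM1-201, CCNT2-204 and CCNK-207, against 3420 of all 54400. Read against that share, the count is no result about the members. CCNT2-204, annotated as a target of nonsense-mediated decay, had 29.1 and 31.2 CPM in the knockout and 19.8 and 12.2 CPM in the parental cells, with no overlap (log2 difference 0.91, edgeR adjusted p = 0.716). CCNK-207, a retained-intron transcript of 747 bases, had 76.26 and 13.16 estimated reads in the knockout and 0.0 and 1.578 in the parental cells. Most of its reads came from knockout replicate 1, which alone gave it 15.2% of CCNK TPM, against 3.35% in knockout replicate 2 (edgeR adjusted p = 0.747). HEXIM1-201 is the whole HEXIM1 gene and repeats its values.

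Grouped by annotated class, the protein-coding transcripts of CCNT2 made up 46.6 and 55.4% of its TPM in the knockout, against 64.0 and 66.1% in the parental cells. The share of retained-intron transcripts of CCNT2 was 35.3 and 21.8% in the knockout and 17.9 and 16.7% in the parental cells. The groups did not overlap in either class, but CCNT2 did not pass the usage test. How often class or transcript shares lie apart over all genes was not computed. Such separations are therefore no result about a member. The coding transcript CCNT2-202 made up 22.3 and 24.2% of the gene in the knockout and 40.5 and 34.8% in the parental cells, and CCNT2-201 made up 10.9 and 14.4% in the knockout and 18.7 and 19.9% in the parental cells. The short coding transcript CCNT2-205 went against them, with 12.9 and 13.1% in the knockout and 4.74 and 11.5% in the parental cells. The retained-intron share was divided between CCNT2-209 and CCNT2-210, and for each of them the groups overlapped. Both are short, so few reads gave them large shares of TPM. CCNT2-209 held 57.0 and 32.0 estimated reads in the knockout and 18.16 and 26.0 in the parental cells. CCNT2-210 held 38.57 and 14.43 in the knockout and 18.06 and 1.781 in the parental cells. The whole gene held 1154 to 1775 reads per library. In reads, CCNT2-202 had 35.1 and 29 CPM in the knockout and 45.4 and 38.9 CPM in the parental cells (edgeR adjusted p = 0.878).

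For CCNT1 the retained-intron share went the other way: it was 13.8 and 14.8% in the knockout and 31.1 and 29.9% in the parental cells. It rested on few reads, and short transcripts weigh heavily in TPM. CCNT1-204 held 27.66 and 21.52 estimated reads in the knockout and 91.83 and 26.8 in the parental cells. The shorter CCNT1-203 held 1.71 and 6.08% of the gene in the knockout and 1.39 and 15.9% in the parental cells, and its 15.9% in parental replicate 2, more than the 14% of CCNT1-204 there, came from 9.132 estimated reads. The nonsense-mediated decay transcript CCNT1-202 held 23.5 and 24.0% of the gene in the knockout and 17.5 and 7.93% in the parental cells. The main coding transcript CCNT1-201 had 112 and 118 CPM in the knockout and 114 and 115 CPM in the parental cells, with a log2 difference of 0.0014 (edgeR adjusted p = 1).

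For CDK9 the coding transcript CDK9-201 carried most reads, with 15.9 and 16.4 CPM in the knockout and 23.1 and 18.3 CPM in the parental cells, lower in both knockout libraries (log2 difference −0.36, edgeR adjusted p = 0.934). It made up 50.4 and 47.5% of CDK9 TPM in the knockout and 44.6 and 45.3% in the parental cells. The rest was divided among the processed transcripts CDK9-203, CDK9-204 and CDK9-205, whose shares were unstable between replicates: CDK9-203 held 29.1 and 0.0% in the knockout and 0.0 and 38.0% in the parental cells. MEPCE was carried by 2 coding transcripts, with MEPCE-202 at 56.3 and 63.3% in the knockout and 62.5 and 56.5% in the parental cells, and MEPCE-201 at 42.4 and 36.7% in the knockout and 36.4 and 40.7% in the parental cells. HEXIM2 had 8 transcripts, all coding, and with so few reads the leading one was HEXIM2-204 in 2 libraries, HEXIM2-202 in parental replicate 2, and HEXIM2-204 and HEXIM2-207 level in knockout replicate 2. HEXIM2-201 held 10.8 and 0% in the knockout and 28.8 and 36.1% in the parental cells, lower in both knockout libraries, on at most 20.05 estimated reads per library (edgeR adjusted p = 0.93). HEXIM2-203 and HEXIM2-206 each passed 10% of the gene in 1 knockout library, at 13.7% in replicate 2 and 15.1% in replicate 1, from 6.082 and 6.177 estimated reads.

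CDK12 is made in coding forms that differ at their last coding exon, shown here because CDK12-202 and CDK12-201 together held most of its reads in every library. In GENCODE v29 the first of them has 27 more coding bases than the other, at chr17:39530604-39530630 on the plus strand, which keep the reading frame and add 9 codons. The letters come from the GENCODE v29 transcript sequences, with 15 flanking bases on either side, and capitals mark the added bases.
CDK12-202: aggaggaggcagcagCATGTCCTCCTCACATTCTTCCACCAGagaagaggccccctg
CDK12-201: aggaggaggcagcagagaagaggccccctg
CDK12-202 held 28.1 and 29.9% of CDK12 TPM in the knockout and 27.1 and 35.6% in the parental cells, and CDK12-201 held 21.4 and 16.9% in the knockout and 24.8 and 9.57% in the parental cells. The form with the added bases was the more abundant in all 4 libraries. In reads, CDK12-201 had 52.5 and 36.9 CPM in the knockout and 57.4 and 15.9 CPM in the parental cells, so that parental replicate 2 was low and the groups overlapped. A shorter coding form, CDK12-209, had the largest share of TPM in every library and held 31.4 and 30% of the gene in the knockout and 34.5 and 40.8% in the parental cells.

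All coding forms of CDK12 together made up 80.9 and 76.8% of its TPM in the knockout, against 86.4 and 86.0% in the parental cells. CDK12-205, its nonsense-mediated decay transcript, had 26.71 and 28.96 estimated reads in the knockout and 0.0 and 9.201 in the parental cells (edgeR adjusted p = 0.954). For CDK13 the groups overlapped in every class, and CDK13-206, its leading transcript, held 37.2 and 35.5% in the knockout and 34.5 and 38.6% in the parental cells. Its full-length coding forms were close to each other, with CDK13-201 at 12.9 and 15% in the knockout and 13.4 and 14.4% in the parental cells, and CDK13-202 at 14.8 and 16.3% in the knockout and 17.7 and 12.5% in the parental cells. The non-coding CDK13-203 and CDK13-204 held from 9.86 to 21.4% of the gene in every library. For CCNK the retained-intron share was 26.5 and 13.1% in the knockout and 12.3 and 10.9% in the parental cells, with the high value in knockout replicate 1. The coding transcript CCNK-204 held 31.8 and 32.9% in the knockout and 32.6 and 26.8% in the parental cells. CCNK-201 held 16.4 and 16.2% in the knockout and 19.8 and 21.6% in the parental cells, lower in both knockout libraries. CCNK-209 held 19 to 32.1% of the gene over the 4 libraries, and its groups overlapped.

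**Figure D4:**
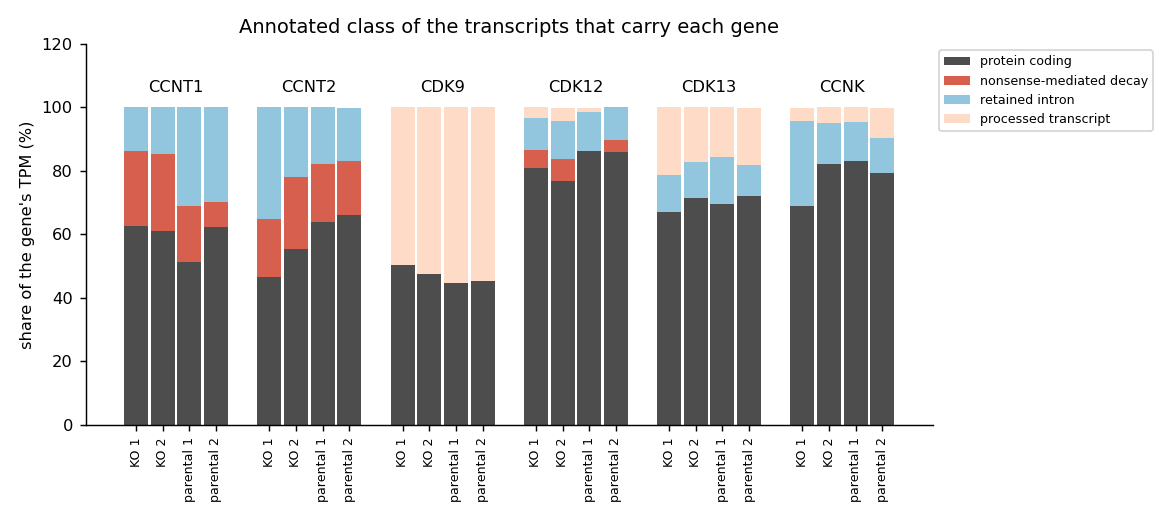
Share of each gene's TPM (%) by the annotated class of its transcripts, with 1 bar per library and knockout to the left of parental, for the 6 kinases and cyclins. CCNT2 has smaller protein-coding shares in the knockout (46.6 and 55.4%) than in the parental cells (64.0 and 66.1%), and CCNT1 smaller retained-intron shares (13.8 and 14.8% against 31.1 and 29.9%). Short transcripts with few reads weigh heavily in these shares, and no member passed the usage test.

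Genes that work with the members were taken as lists, and no gene of any of the 4 lists passed the test in either direction (edgeR adjusted p under 0.05). At an unadjusted edgeR p under 0.05 stood 14.3% of all genes tested, and read against this share the counts below are no result about the lists. Of 12 other cyclins and kinases of transcription, such as CDK7 with cyclin H and the Mediator kinase CDK8, 1 had an unadjusted p under 0.05. The median log2 difference was 0.065. CDK10 had the smallest p, with 15.6 and 18.2 CPM in the knockout and 22.6 and 23.7 CPM in the parental cells (edgeR adjusted p = 0.303). CCNL2, a cyclin of the splicing-linked CDK11 kinases, came second, with 140 and 126 CPM in the knockout and 143 and 160 CPM in the parental cells (edgeR adjusted p = 0.556).

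Of 13 proteins that bind 7SK or P-TEFb or release P-TEFb from 7SK, 2 had an unadjusted p under 0.05, and the median log2 difference was 0.047. RBM7, a subunit of the nuclear exosome targeting complex that can bind 7SK, had 49.1 and 48.1 CPM in the knockout and 40 and 35.7 CPM in the parental cells (log2 difference 0.36, edgeR adjusted p = 0.292).

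Of 13 DNA repair genes known to depend on CDK12, 2 had an unadjusted p under 0.05. In this list 7 had positive and 6 negative differences, with a median of 0.025. BRCA2 had 253 and 236 CPM in the knockout and 198 and 186 CPM in the parental cells (log2 difference 0.35, edgeR adjusted p = 0.235), whereas FANCD2 had 133 and 131 CPM in the knockout and 153 and 185 CPM in the parental cells (log2 difference −0.35, edgeR adjusted p = 0.282). Of 10 short-lived mRNAs known to depend on CDK9, 1 had an unadjusted p under 0.05. In this list 6 had positive and 4 negative differences, with a median of 0.045. CCND1, which encodes cyclin D1, had 86.3 and 89.4 CPM in the knockout and 69.4 and 49.5 CPM in the parental cells (log2 difference 0.56, edgeR adjusted p = 0.183). XIAP, an inhibitor of apoptosis, had 110 and 102 CPM in the knockout and 116 and 119 CPM in the parental cells (log2 difference −0.15, edgeR adjusted p = 0.613).

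**Figure D5:**
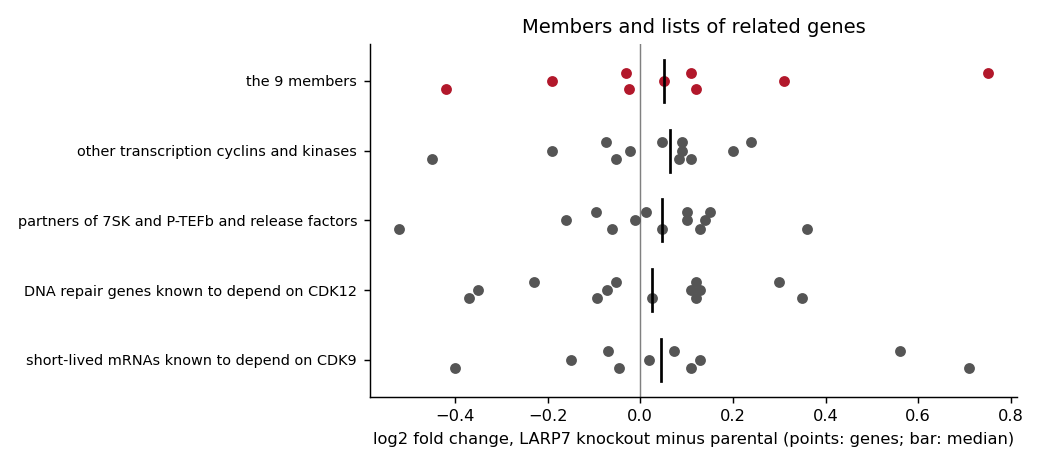
Log2 difference, knockout minus parental, of the 9 members (red) and of 4 lists of related genes (grey), with 1 point per gene and a black bar at the median. The medians are 0.052 for the members and 0.065, 0.047, 0.025 and 0.045 for the lists from top to bottom.

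The genes whose 4 values followed HEXIM1 most closely were FAM3C, ING3 and SLC30A1, at distances of 0.0703, 0.118 and 0.165 between centred log2 CPM values, among 4808 protein-coding genes of similar level. FAM3C had 103 and 85.9 CPM in the knockout and 67.8 and 44.1 CPM in the parental cells, with the same order of the 4 libraries as HEXIM1. The genes closest to CDK9 were CHTF18, PHKG2 and IVD, at distances of 0.0181, 0.0399 and 0.0415 among 4381 genes. CHTF18 had 20.2 CPM in both knockout libraries and 28.8 and 24.5 CPM in the parental cells. With 4 libraries such likeness describes these libraries only.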

How the data were processed

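Per the file headers, the authors deposited for each library and transcript an estimated count, TPM, a length and an effective length; each GEO sample held 2 replicate tables. Per the submitters' processing notes, the tools included Salmon 1.6, edgeR 3.24.3, STAR 2.5.3a and cutadapt 1.6, with build hg38. Neither the roles of these tools nor a strand setting or annotation release is given in the sources used here. Salmon's error in dividing reads among similar transcripts is not seen by the tests. Transcripts were joined by identifier to GENCODE 29: 197318 of 198002 matched and 684 did not, and 55 of the 59 member transcripts had the length of that release. That release lists 75 transcripts of the members, so the transcript shares cover only the 59 in the deposited data.

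Gene counts are sums of the deposited estimated counts, rounded to whole numbers. Genes and transcripts were tested with edgeR 4.0.16 in R 4.3.3 (filterByExpr, TMM, quasi-likelihood F test, adjusted p under 0.05), and usage with diffSpliceDGE over transcripts with at least 10 reads and 5% of their gene in 2 libraries. CPM carry TMM factors, and the standard error is the log2 difference divided by the root of F. Ratios used the deposited TPM. Alternatives were DESeq2 1.42.0, limma 3.58.1 voom, other scaling and filters, a length offset, protein-coding genes alone, each library left out in turn and a replicate block. The gene and usage tests were run on simulated counts with a fixed spread, not the spread of these libraries. That run checked the steps and is no measure of power for differences as small as those of the members. Named were all members, their transcripts with at least 10% of the gene in any library, LARP7, 7SK, the 2 smallest p or the calls of each list, and the 3 genes most like HEXIM1 and CDK9. Among the genes this rule names, 1 is not reported here. CDK12-205 lies outside this rule, picked once its values had been seen. The members and lists were chosen with earlier results of these data known. The library total limits precision, and HEXIM2 is the member it limits most.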

Additional observations from a re-analysis of the deposited data

How the results depend on the processing

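DESeq2, no filter on low counts and the replicate block each called 1 member higher in the knockout, HEXIM1 in each case (adjusted p = 0.0496, 0.00128 and 4.15e-05), against 0 in the report; the block gave LARP7 an adjusted p of 0.000525. With each library left out in turn, a group left with 1 library was assumed to vary like the other. For the members these fits are therefore read for effect size only. The log2 difference of MEPCE was 0.67 without parental replicate 1, and that of CDK9 was −0.54 without parental replicate 2.

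Over all genes, 61 were higher and 93 lower; the counts were 187 and 272 with DESeq2, 371 and 460 with no filter, 34 and 57 with the length offset, 768 and 888 with the replicate block, and 106 higher with library size alone, which gave 56.4% of calls as higher, against 39.6%. Leaving out 1 library gave 66 to 1133 higher and 128 to 1132 lower, the largest counts without a parental library. The replicate block left 0 member transcripts and 0 members with changed usage; the numbers do not establish a pairing, since the differences between replicates correlated by 0.13 over 18484 genes in 2 pairs.

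Signs turned with library size alone for CCNT1 (0.069) and CCNT2 (0.061) and with the length offset for CCNT2 (0.28). Leaving out libraries gave ranges of log2 difference of −0.057 to 0.014 for CCNT1, −0.1 to 0.036 for CCNT2, −0.42 to 0.52 for HEXIM2, −0.095 to 0.35 for CDK12 and −0.064 to 0.17 for CDK13. For the log2 differences of ratios the ranges were −0.17 to 1.09 for HEXIM1 over HEXIM2 and −0.009 to 0.3 for CDK12 over CDK13. The log2 difference of the ratio of CCNT1 to CCNT2, knockout minus parental, was 0.0061 in CPM and 0.028 over protein-coding transcripts. The causes were not tested. No alternative gave a member a changed transcript or changed usage, DESeq2 on transcripts included, which was added after seeing the data, as was adding antisense reads to HEXIM1. Depth limits HEXIM2 and the transcript shares most.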
